A study of Mus musculus with 6 samples.

Results

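Cytoplasmic ribosomal protein genes were examined in small pre-B cells, B-cell precursors of the bone marrow that rearrange immunoglobulin light chain genes. They were the rows of the count table whose symbol starts with Rpl or Rps followed by a digit, together with the stalk genes Rplp0, Rplp1 and Rplp2 and with Rpsa. Symbols marked -ps, the Rps6k kinases and Rps19bp1 were left out. This gave 94 of 49997 rows: 43 large-subunit genes, 31 small-subunit genes, 3 stalk genes, 11 paralogs or retrogenes and 6 symbols that RefSeq classes as pseudogenes.

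Total RNA from 3 WT and 3 ΔrsCBE libraries was compared. The cells were purified by flow cytometry from bone marrow of C57BL/6 mice aged 6 to 12 weeks, and libraries were made from 1 µg of RNA after depletion of ribosomal RNA. The series title connects the deletion with CTCF-mediated chromatin topology and receptor editing, and the interval removed is not given in the sources used here. No label says that the libraries of a genotype came from separate animals. The p-values measure the spread between these libraries, which may be technical in WT and partly technical in ΔrsCBE. By Xist and Y-linked counts, ΔrsCBE had a library with the male pattern and others with the female one. Its libraries thus did not all come from the same animal.

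A cytoplasmic ribosome is built from a small subunit, which reads the mRNA, and a large subunit, which joins amino acids and threads the new protein through a tunnel. Each subunit is a scaffold of ribosomal RNA with one copy of nearly every ribosomal protein, and the acidic stalk of the large subunit recruits the GTPase factors of translation. Many of these mRNAs start with a run of pyrimidines, which ties their translation to growth signalling through mTOR. Ribosomal protein mRNAs have also been copied back into mammalian genomes many times, which left large numbers of intronless processed pseudogenes with nearly the same sequence.

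The copies are shown first because they bear on how the counts of these genes can be read. In the coding sequence of Rpl3, a protein next to the peptide-forming centre, the alignment with the processed pseudogene Rpl3-ps1 (chrX:13202571-13203780, plus strand) held 2 mismatches in 1209 aligned bases. Rpl13a and the pseudogene Gm11478 (chr11:86630428-86631026, minus strand) differed at 8 of 593 aligned bases. Rpl32 and the retrogene Rpl32l differed at 10 of 398, and Rpl37 and the retrogene Rpl37rt differed at 1 of 291. The coding sequence of Rps16 and its copy Rps16-ps2 (chr5:129128077-129128517, minus strand) was identical over 438 bases. Stretches of 60 coding bases from GENCODE M21 transcripts (GRCm38) follow, with differing bases in capitals.
Rpl3, coding bases 1 to 60: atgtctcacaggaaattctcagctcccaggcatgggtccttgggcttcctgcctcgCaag
Rpl3-ps1: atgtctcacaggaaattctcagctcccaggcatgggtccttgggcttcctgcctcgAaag
Rpl13a, coding bases 94 to 153: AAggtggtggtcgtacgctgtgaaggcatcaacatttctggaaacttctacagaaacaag
Gm11478: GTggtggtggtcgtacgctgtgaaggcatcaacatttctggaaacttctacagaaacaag
Rpl32, coding bases 253 to 312: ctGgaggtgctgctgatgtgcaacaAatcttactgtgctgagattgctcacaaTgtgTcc
Rpl32l: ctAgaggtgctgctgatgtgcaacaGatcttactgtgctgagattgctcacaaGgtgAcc
Rpl37, coding bases 190 to 249: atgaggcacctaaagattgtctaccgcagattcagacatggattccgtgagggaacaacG
Rpl37rt: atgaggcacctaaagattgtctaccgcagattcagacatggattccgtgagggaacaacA
Rps16 and Rps16-ps2, coding bases 1 to 60: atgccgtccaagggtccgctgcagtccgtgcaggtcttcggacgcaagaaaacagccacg

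The start sites carry the other shared sequence feature. A run of at least 8 C or T bases that reaches within 10 bases of an annotated start of the gene was found in 31 of the 68 members in the RefSeq promoter table (GRCm38.p6), or 45.6%, against 16.1% of its 27025 genes. The motif CGGAAG, searched on both strands from 250 bases before to 50 bases after the start, was present in 63.2% of members and 18.8% of all genes. TATAAA, the core of a TATA box, was present in 11.8% of members and 15.7% of all genes. Such matches describe letters in a window and are not evidence of binding or regulation. In the windows below, 20 bases before and 20 bases from the start on, capitals mark the pyrimidine run; where a gene has several starts, one with a run is shown. They show genes discussed below, 4 with a run and 2 without, the last 2 being in lower case throughout.
Rplp2, chr7:141447631-141447670, plus strand: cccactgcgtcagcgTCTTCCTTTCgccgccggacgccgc
Rpl4, chr9:64173367-64173406, plus strand: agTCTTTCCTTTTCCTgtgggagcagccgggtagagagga
Rps9, chr7:3704021-3704060, plus strand: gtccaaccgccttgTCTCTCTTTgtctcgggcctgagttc
Rpl13a, chr7:45128726-45128765, minus strand: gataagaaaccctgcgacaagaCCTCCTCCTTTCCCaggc
Rpl26, chr11:68901546-68901585, plus strand: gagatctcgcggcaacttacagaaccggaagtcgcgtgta
Rpl37rt, chr5:115110249-115110288, minus strand: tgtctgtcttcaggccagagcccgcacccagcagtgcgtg

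Libraries held between 428106 and 1300805 counts, so that 3 counts, taken as the smallest detectable amount, stood for 2.31 to 7.01 CPM (counts relative to the library's total, on one scale for all libraries). All 10 small pre-B markers were tested, 0 passed the threshold, and their summed level was 10169 to 12001 CPM in WT and 11151 to 11912 CPM in ΔrsCBE. Of 6 erythroid and 6 T and NK cell markers, 5 each were at 0 in every library, and the myeloid markers summed to at most 12.3 CPM. The 3 plasma cell markers, of which 1 was deep enough to be tested, had sums from 53.1 to 88.6 CPM per library. The 4 large pre-B and pro-B markers, of which 0 were tested, had sums from 3.02 to 11.95 CPM. Cycling markers summed to 5795 to 6508 CPM in WT and to 2405 to 3922 CPM in ΔrsCBE. Of 14 tested, 12 were lower with an edgeR adjusted p under 0.05, where 1.49% of all tested genes were. Early response genes summed to 3034 to 3540 CPM in WT and to 4087 to 6066 CPM in ΔrsCBE. Of 10 tested, 3 were higher at that threshold, where 0.205% of all tested genes were. By Xist and Y-linked counts, ΔrsCBE replicates 2 and 3 had the female pattern and the other 4 libraries the male one. The part of cycling and early response genes in the values that follow was not tested, and less RNA per cell and fewer cells of a kind cannot be told apart in bulk libraries.

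The 94 rows together held 22239 counts. They made up 0.406%, 0.410% and 0.431% of all counts in the WT libraries and 0.432%, 0.498% and 0.464% in the ΔrsCBE libraries, or 0.416% ± 0.0136 and 0.465% ± 0.0331 (SD, n = 3). Every ΔrsCBE share lay above every WT share, but the closest pair was separated by less than counting error: the 95% Wilson intervals of WT replicate 3 (0.420% to 0.442%) and ΔrsCBE replicate 1 (0.418% to 0.446%) overlapped. Summed counts of large-subunit rows, the stalk and paralogs included, were 1.83 ± 0.138 times those of small-subunit rows in WT and 1.88 ± 0.0495 times in ΔrsCBE (SD, n = 3), a difference smaller than the spread between WT libraries.

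Counts were unevenly spread over the members. The 5 most counted members held 41.4% of the counts, 14 members had fewer than 10 counts over the 6 libraries, and 5 were at 0 in each. Per kilobase of annotated exon, Rpl13a stood highest among tested genes at 509 CPM, followed by Rpl4 at 403, and Rplp1 at 326 and Rpl8 at 254 were also among the 5 highest. The lowest levels per kilobase among tested genes were those of Rps15a at 3.67 CPM, Rpl15 at 5.60, Rpl21 at 5.72, Rpl17 at 10.2 and Rps20 at 10.3. Over the 77 genes of the 2 subunits and the stalk the median was 10.7 CPM per kilobase, beside 7.62 for 78 mitochondrial ribosomal protein genes.

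Several proteins of which each ribosome needs a copy were almost uncounted. Rpl35, at the exit of the peptide tunnel, had 1 count over all libraries, Rpl23a at the same exit had 3, and Rps16, whose tail reaches the decoding site, had 4. Rps10 and Rps28 had 6 each, Rps26 had 10 and Rpl11 had 16. Rpl5, which with Rpl11 and 5S RNA forms the particle that can bind Mdm2, had 51, Rps6, the classic S6 kinase substrate, had 44, and Rps19, the gene most often mutated in Diamond-Blackfan anaemia, had 45. None of these was deep enough to be tested, and 49 members in all, with at most 63 counts each, fell out at the count filter.

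For many of these genes, the pseudogene rows held more counts than the gene. Annotated pseudogenes that carry the name of a member, or share at least 10% of their 25-base words with it, numbered 979, of which 293 had counts. They summed to 28931 counts, 1.30 times the total of the members. A single pseudogene row exceeded its parent gene in 56 cases, which involved 42 parents, and the summed rows exceeded the parent in 46 of the 77 subunit and stalk genes. A position was found for 279 of the 293 rows with counts. Of these, 44 lay within a protein-coding gene on the same strand and held 9348 counts, of which Gm11478 alone held 8428. Another 185 rows lay within no protein-coding gene on either strand and held 15330 counts.

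**Figure D1:**
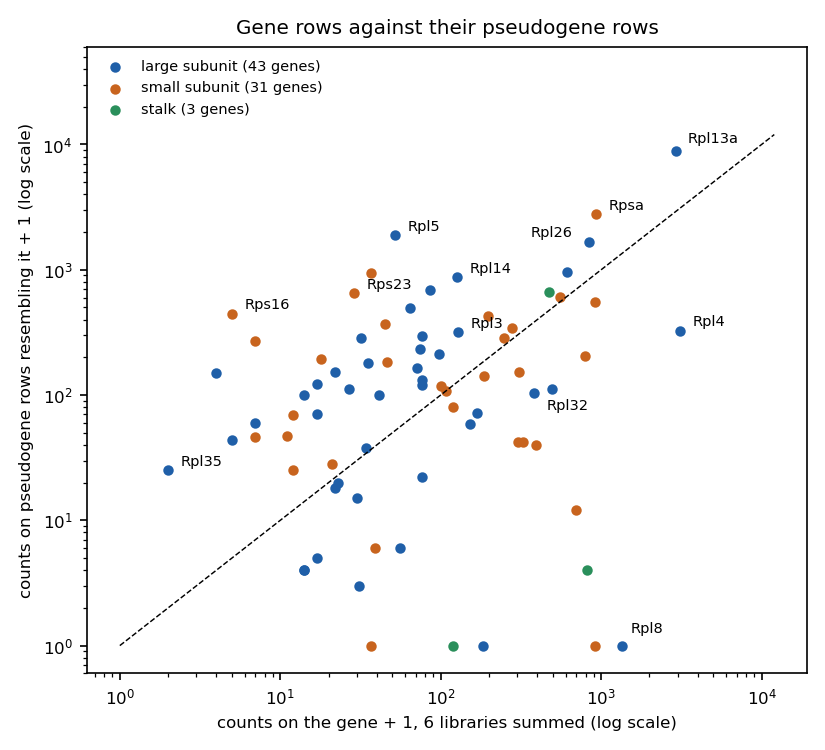
Counts over the 6 libraries on each of the 77 subunit and stalk genes (x axis, log scale, 1 added) against the summed counts of the pseudogene rows resembling it (y axis, log scale, 1 added); the dashed line marks equality. The 46 genes above the line include Rps16, Rpl5 and Rpl13a, while Rpl8 had no counts on such rows.

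The largest was Gm11478, with 8428 counts against 2911 for Rpl13a; it lies within Vmp1 on the same strand, and Vmp1 itself had 165 counts. Rpsa-ps10 held 2636 counts against 927 for Rpsa, and Gm15500 held 1893 against 51 for Rpl5, with the coding bases of the pair identical. Rps16-ps2 held 446 counts against 4 for Rps16, the pair shown above with identical coding sequence. Rps23-ps1, a copy of a decoding-site protein gene, held 636 counts against 28, and Rpl14-ps1 held 872 against 125. Among retrogenes counted as members, Rpl37rt held 197 counts and its parent Rpl37 held 13. Which locus the reads of such a pair came from cannot be told from the table, and how reads with several matches were counted is not given in the sources used here.

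Levels and the uniqueness of the sequence were set side by side. The share of 50-base words of a gene's transcripts found in no other gene had a median of 57.0% over the 77 subunit and stalk genes, against 96.4% for mitochondrial ribosomal protein genes and 99.8% for ribosome assembly genes. Spearman's rho between this share and CPM per kilobase was 0.050 over the 93 members with a transcript, and with 100-base words it was 0.16, as a description across genes that share sequence and libraries. Over the subunit and stalk genes the median level was 9.21 CPM per kilobase for the 18 genes with the least unique sequence, 10.2 for the 31 in the middle and 15.3 for the 28 with the most, when the share was divided into 3 equal ranges.

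**Figure D2:**
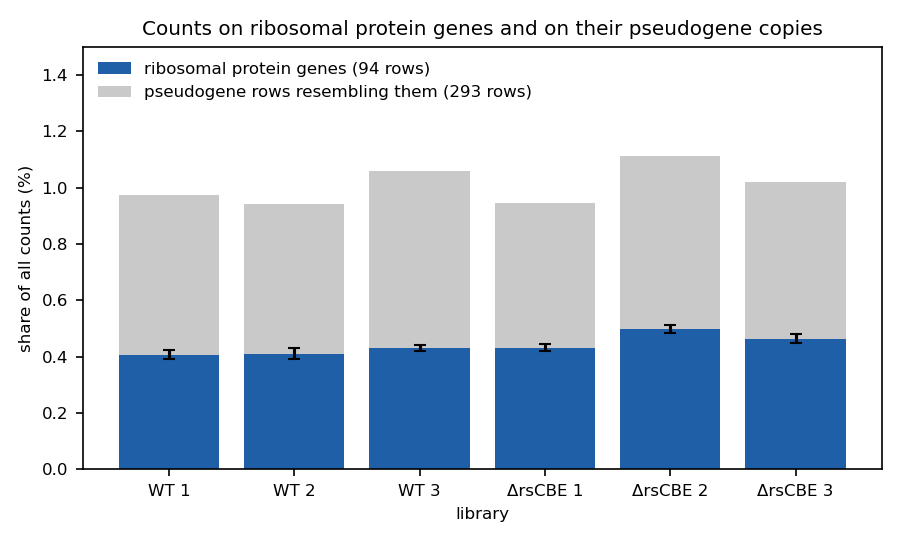
Share of all counts (%) per library on the 94 ribosomal protein rows (blue, with 95% Wilson intervals for counting error) and on the 979 pseudogene rows resembling them (grey, stacked). Of these pseudogene rows, 293 had counts. The blue shares ran from 0.406% to 0.498%, and with the grey part WT ran from 0.942% to 1.06% and ΔrsCBE from 0.944% to 1.11%.

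The genotypes were then compared gene by gene. After the count filter 45 members were among 7792 tested genes, and with edgeR's quasi-likelihood test 0 of 45 had an adjusted p under 0.05, where 1.69% of all tested genes did (0.205% higher and 1.49% lower in ΔrsCBE). DESeq2's Wald test also called 0 members, where it called 1.18% of all tested genes. The smallest adjusted p was 0.201. Before adjustment 7 members, or 15.6%, had p under 0.05 in edgeR, where 10.2% of all tested genes did. In DESeq2 4 members did, a count that cannot be judged because its share over all tested genes is not given here. Of the 7 in edgeR, Rpl32, Rplp2, Rpl4, Rps9, Rpl3 and Rpl8 were higher in ΔrsCBE, the direction of 4.22% of all tested genes. Rpl37rt was lower, the direction of 6.02%.

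The 45 log2 fold changes ran from −0.86 to 1.04 with a median of 0.12, beside 0.011 for all tested genes, and 30 of them, 66.7%, were above 0, beside 51.8%. Group values did not overlap for 4 members, or 8.89%, beside 16.2% of all tested genes. Of these, 3 members were higher in ΔrsCBE, beside 7.24% of all tested genes, and 1 was lower, beside 8.95%. The medians by class were 0.28 for the 3 stalk genes, 0.24 for 21 large-subunit genes and 0.062 for 17 small-subunit genes. Intervals were wide at this depth. The median half-width of the 95% interval was 0.53, and 0.34 for the 13 members with a mean of at least 100 CPM; for 14 of the 45 genes the interval reached a log2 change of 1 in size.

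**Figure D3:**
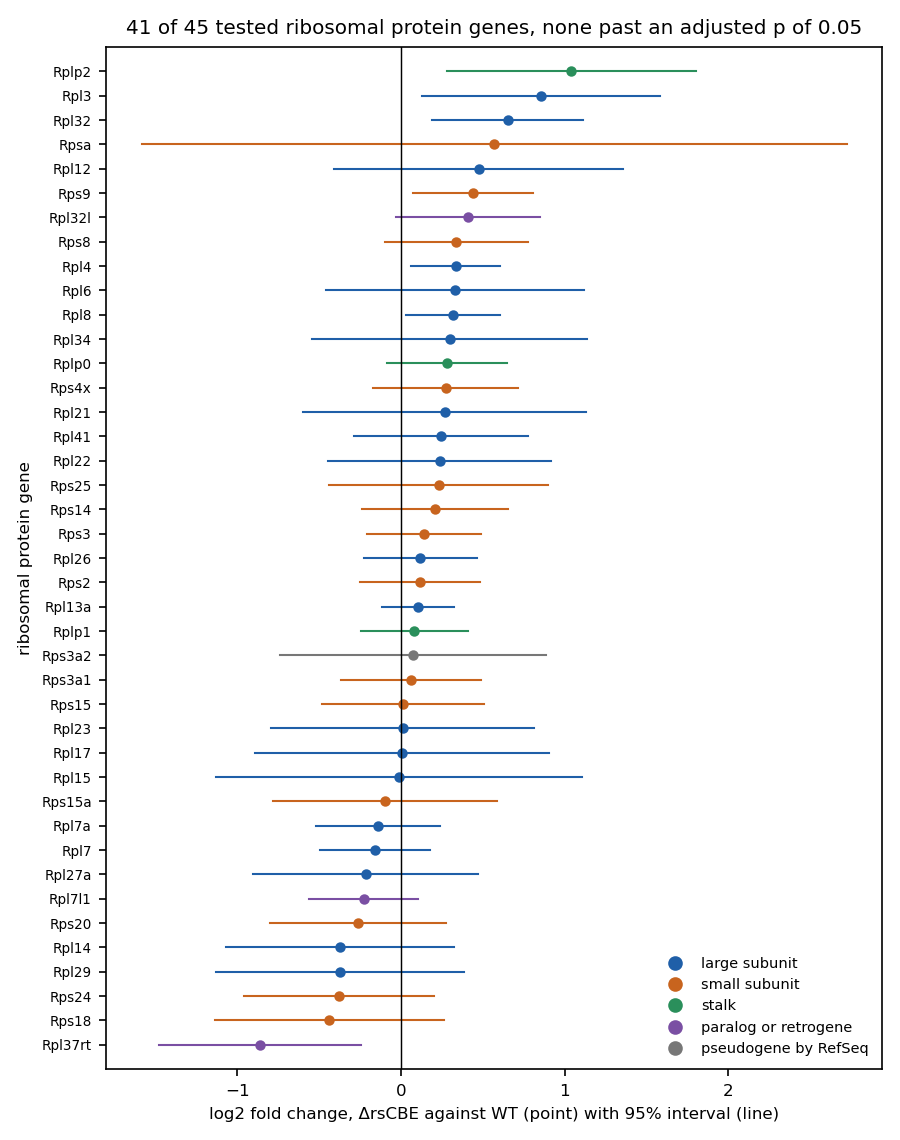
Log2 fold change of ΔrsCBE against WT (point) with its 95% interval (line, edgeR) for 41 of the 45 tested members, ordered by value and coloured by class. Estimates ran from −0.86 for Rpl37rt to 1.04 for Rplp2, and the interval of Rpsa was the widest.

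The stalk was the class with the highest median. Rplp2, one of its acidic P proteins, was at 15.8, 19.1 and 13.1 CPM in WT and 15.3, 42.3 and 35.6 CPM in ΔrsCBE. Replicates 2 and 3 of ΔrsCBE were above all WT libraries, and replicate 1 lay among them. The log2 fold change was 1.04 ± 0.37 (SE), with an edgeR adjusted p of 0.223. Rplp0, which anchors the P proteins to the subunit, was at 75.8, 83.6 and 91.1 CPM and at 99.1, 119.8 and 87.2 CPM, so that the groups overlapped in 1 library (0.28 ± 0.18). Rplp1, the partner of Rplp2, was at 139, 174 and 162 CPM and at 209, 148 and 145 CPM, and only ΔrsCBE replicate 1 stood above the WT libraries (0.081 ± 0.16).

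Among large-subunit genes, Rpl4, whose loop lines the peptide tunnel, was the most counted member. Its values were 504, 609 and 537 CPM in WT and 520.3, 786 and 762 CPM in ΔrsCBE. Again replicates 2 and 3 of ΔrsCBE were the high ones and replicate 1 lay within the WT range. The log2 fold change was 0.33 ± 0.13, with an edgeR adjusted p of 0.308. Rpl8, a core protein by the peptide-forming centre, was at 231, 225 and 250.2 CPM in WT and 234, 350.2 and 299.8 CPM in ΔrsCBE. The same 2 libraries stood above WT, and the estimate was 0.32 ± 0.14 (edgeR adjusted p = 0.403).

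Rpl32 and Rpl3 were higher in each ΔrsCBE library than in any WT library. Rpl32, another large-subunit protein, was at 66.3, 40.6 and 60.2 CPM in WT and 67.2, 121.8 and 79.9 CPM in ΔrsCBE, where replicate 1 exceeded WT replicate 1 by less than 1 CPM. The log2 fold change was 0.65 ± 0.23, with an edgeR adjusted p of 0.201. Rpl3 was at 17.4, 16.7 and 18.5 CPM in WT and 51.9, 20.1 and 25.8 CPM in ΔrsCBE. Here replicate 1 was the highest, unlike in Rpl32, Rpl4, Rpl8 and Rplp2, and the log2 fold change was 0.85 ± 0.35 with an edgeR adjusted p of 0.358.

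Rpl13a, known also for a part in silencing mRNAs after interferon, varied little between libraries. It was at 526, 542 and 595 CPM in WT and 619, 555 and 619 CPM in ΔrsCBE, with overlapping groups and a log2 fold change of 0.10, whose 95% interval ran from −0.11 to 0.32. Rpl26, at the tunnel exit, was at 125, 153 and 185 CPM in WT and 149.8, 210.3 and 149 CPM in ΔrsCBE (0.12 ± 0.17). For the sparsely counted Rpl15, Rpl17 and Rpl21 the log2 fold changes were −0.012 ± 0.55, 0.0064 ± 0.44 and 0.27 ± 0.42. At the low end, Rpl29, a heparin-binding protein of the large subunit, had −0.37 ± 0.37.

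**Figure D4:**
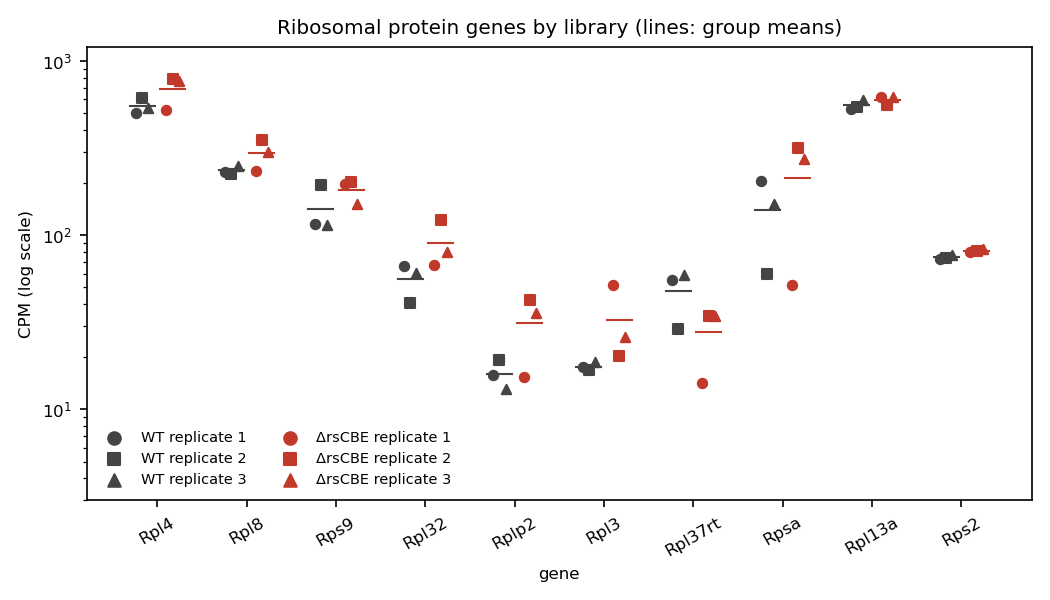
CPM (log scale) of 10 ribosomal protein genes in each library; marker shapes are replicate numbers, colours are genotypes and short lines are group means. In Rpl4, Rpl8 and Rplp2, ΔrsCBE replicate 1 (red circle) lies with the WT libraries and the other ΔrsCBE libraries lie above; in Rpl3 it is the highest.

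In the small subunit, Rps9, which lines the mRNA entry and bears on decoding accuracy, was at 115, 194 and 114 CPM in WT and 196, 200.3 and 151 CPM in ΔrsCBE. WT replicate 2 lay with the ΔrsCBE libraries, and the log2 fold change was 0.44 ± 0.18 with an edgeR adjusted p of 0.342. Rps2, on the path of the mRNA, had little spread. It was at 72.7, 74.1 and 77.2 CPM in WT and at 80.2, 80.5 and 83.6 CPM in ΔrsCBE. The groups did not overlap, but the estimate was small at 0.12 ± 0.18, with an edgeR adjusted p of 0.895. With Rpl32 and Rpl3, it made up the 3 members that were higher without overlap.

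Rpsa, the laminin receptor protein of the small subunit, had the largest spread within groups of the 45 tested members. Its levels were 205, 59.7 and 149.8 CPM in WT and 51.9, 314 and 273 CPM in ΔrsCBE, so that the lowest and the highest values were both ΔrsCBE. The log2 fold change was 0.57 ± 0.79, with an edgeR adjusted p of 0.892, and the SD of log2 CPM within groups was 1.19, beside a median of 0.35 over tested members and 0.26 over all tested genes. Rps3, at the mRNA entry, had 0.14 ± 0.17, Rps14 0.21 ± 0.22, Rps15, near the tRNA entry site, 0.011 ± 0.24 and Rps18, in the head of the subunit, −0.44 ± 0.34. Rps24, mutated in Diamond-Blackfan anaemia, had −0.38 ± 0.28. Rps15a and Rps20 had −0.096 ± 0.33 and −0.26 ± 0.26.

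Rps4x is encoded on the X chromosome. It was at 85.3, 57.3 and 127 CPM in WT and 145, 109 and 98.3 CPM in ΔrsCBE, with a log2 fold change of 0.27 ± 0.21. The highest library was ΔrsCBE replicate 1, which has the male pattern, and the 2 libraries with the female pattern lay within the WT range. The other X-linked members, Rpl10, Rpl36a and Rpl39, had 16, 6 and 13 counts and were not tested.

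Paralogs and retrogenes were sparse apart from 3 genes. The retrogene Rpl37rt (chr5:115102923-115110268, minus strand) was at 55.3, 28.7 and 58.7 CPM in WT and 14.2, 34.2 and 34.4 CPM in ΔrsCBE. WT replicate 2 lay within the ΔrsCBE range, ΔrsCBE replicate 1 was the lowest, and the log2 fold change was −0.86 ± 0.30 with an edgeR adjusted p of 0.207. Rpl32l was at 69.5, 114.7 and 54.8 CPM and at 88.5, 97.6 and 106.9 CPM (0.41 ± 0.21). Rpl7l1, a nucleolar relative of Rpl7, was at 120.0, 143 and 157 CPM and at 101, 137 and 123 CPM (−0.23 ± 0.16).

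The share of a paralog in the counts of its pair could be compared for 2 of 8 pairs. Rpl7l1 made up 50.9% ± 6.12 of the Rpl7 and Rpl7l1 counts in WT and 50.5% ± 5.01 in ΔrsCBE (SD, n = 3, exact two-sided permutation p = 1). Rpl3l, the striated-muscle form of Rpl3, made up 25.7% ± 22.6 and 27.1% ± 12.2 of its pair (exact two-sided permutation p = 0.9), on 49 counts in all. The adjusted p was 1 for both, and 3 libraries against 3 cannot go below 0.1. Rpl10l, Rpl39l and Rps23rg1 were at 0 in every library. Rps27l, a p53 target, had 15 counts beside 38 for Rps27, Rpl36al had 42 beside 6 for Rpl36a, Rpl22l1 had 10 beside 168 for Rpl22, and Rps4l had 10. Rps27rt, with a coding sequence identical to that of Rps27, had 22.

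ΔrsCBE replicate 1 decided several of these values. Without it edgeR called 3 members, Rpl4 (log2 fold change 0.50, adjusted p = 0.00588), Rplp2 (1.36, adjusted p = 0.0238) and Rpl32 (0.82, adjusted p = 0.0491), where 1.94% of tested genes were called. What then remained of ΔrsCBE were the 2 libraries with the female pattern, set against male-pattern WT libraries, so that sex and genotype cannot be told apart in these values. With sex as a covariate, a fit in which the genotype estimate rests on ΔrsCBE replicate 1, edgeR gave −0.072 for Rpl4 and −0.023 for Rpl8. In that fit Rpl3 (1.53, adjusted p = 0.0363) and Rpl37rt (−1.83, adjusted p = 0.0338) were called, where 1.12% of tested genes were. Over the 15 alternatives run the adjusted p of Rpl4 lay between 0.00588 and 0.903, that of Rplp2 between 0.0238 and 0.996 and that of Rpl32 between 0.0491 and 0.859. For Rpl3 it lay between 0.0363 and 0.870, for Rpl37rt between 0.0338 and 0.680, and for Rps9 between 0.0451 and 0.898. Without WT replicate 2, Rps9 was called with an edgeR adjusted p of 0.0451, where 1.19% of tested genes were. Across the 45 tested members ΔrsCBE replicate 1 was the lowest of its group in 16, the highest in 17 and between in 12, and it lay within the WT range in 24.

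Counts of each gene and its pseudogene rows were added in a further fit, chosen after the data had been seen, since the reads of near-identical copies may be split between rows. Copies that are members themselves, such as Rpl37rt, Rpl32l and Rps27rt, were kept as separate rows and not added to Rpl37, Rpl32 and Rps27. The summed fit tested 66 members, and 1 was called, where 1.78% of all tested genes were. Rpl3 with its copies was at 74.2, 64.3 and 62.4 CPM in WT and 129.7, 87.3 and 114 CPM in ΔrsCBE, higher in each ΔrsCBE library (0.72 ± 0.19, edgeR adjusted p = 0.0446). Rpl3-ps1 alone was at 37.9, 33.4 and 30.9 CPM and at 57.8, 51.3 and 59.0 CPM, without overlap and with an edgeR adjusted p of 0.124.

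Rpl13a changed sign when its copies were added. The log2 fold change of the sum was −0.27 ± 0.092 (edgeR adjusted p = 0.186), against 0.10 for the gene row alone. The copy Gm11478 was at 1771, 1782 and 2107 CPM in WT and 1396, 1587 and 1319 CPM in ΔrsCBE, without overlap. It was the 1 called row of 60 tested pseudogene rows, a share near the 1.69% called over all tested genes, at −0.40 ± 0.098 with an edgeR adjusted p of 0.0312. Rpl5 with its copies was at 376, 299.9 and 344 CPM and at 446, 479 and 358 CPM (0.33 ± 0.13, edgeR adjusted p = 0.278). ΔrsCBE replicate 3 lay within the WT range.

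Summed over all families, members and pseudogene rows made up 0.973%, 0.942% and 1.06% of WT counts and 0.944%, 1.11% and 1.02% of ΔrsCBE counts. The groups overlapped, unlike the shares of the member rows alone. The median log2 fold change of the 66 sums was 0.078, beside 0.016 for all genes of that fit. Pseudogene rows held 58.3%, 56.5% and 59.3% of the joint counts in WT and 54.2%, 55.3% and 54.6% in ΔrsCBE, without overlap, and Gm11478 alone held 8428 of their 28931 counts. With the -ps rows alone, which do not include Gm11478, the share was 31.4%, 27.8% and 31.3% in WT and 27.9%, 31.0% and 31.4% in ΔrsCBE, and the groups overlapped.

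Genes that make or serve the ribosome did not pass the threshold in edgeR either. The counts below can be read against the 1.69% of all tested genes called in edgeR and the 10.2% with p under 0.05. In lists of this size, 0 called genes is near the first share and is no result about the lists. Of 50 genes of ribosome assembly 36 were tested, 0 were called and 0 had p under 0.05, with a median log2 fold change of 0.15. Ncl, a nucleolar RNA-binding protein gene, had −0.17 ± 0.11, and Ubtf, an activator of RNA polymerase I, had 0.21 ± 0.15. Of 26 translation partners whose mRNAs mostly share the pyrimidine start, 21 were tested, 0 were called and 0 had p under 0.05, with a median of −0.053. The elongation factor genes Eef1a1 and Eef2 had −0.053 ± 0.12 and 0.043 ± 0.11. Of 78 mitochondrial ribosomal protein genes 45 were tested, 0 were called and 3 had p under 0.05, with a median of 0.038. DESeq2 called 0 in each of these lists, where it called 1.18% of all tested genes. Fau, which encodes a ribosomal protein fused to a ubiquitin-like protein, was too low to be tested.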

How the data were processed

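The 6 RNA-seq libraries were grouped by the genotype label, with 3 WT and 3 ΔrsCBE. The table as deposited gave raw read counts by gene symbol. Per the submitters' processing notes, Trim Galore 0.6.10, STAR 2.7.11, HTSeq and DESeq2 were used with build mm10; counting options are not given in the sources used here, and the kit was strand-specific per the labels' protocols. Reads that match several loci may have been dropped or placed on one copy, which bears on every gene with pseudogenes. The members and the gene lists were chosen with earlier results of these data known.

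Counts were fitted over the whole table with edgeR 4.0.16 in R 4.3.3 (filterByExpr with a minimum count of 10, TMM factors from 0.978 to 1.02, robust glmQLFit, glmQLFTest), with Benjamini-Hochberg adjustment over 7792 genes and a threshold of 0.05. The procedure was also run on simulated counts, which held no sex difference and no outlying library. That run cannot show how the procedure handles those features. CPM used TMM-scaled library totals, log2 CPM a prior count of 2, and errors of log2 fold changes are standard errors from the F statistic. Wilson intervals and the 3-count floor cover counting error only.

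Named with values were the members past the threshold, the 5 highest and 5 lowest log2 fold changes, the 5 highest and lowest levels per kilobase, and members of lists by role (stalk, tunnel, mRNA path, decoding, anaemia genes, paralogs, X-linked). Rps9, Rpl32l, Rpl37, genes of the other lists and pseudogenes were named after their values were seen. Sequences came from GENCODE M21 and from RefSeq's promoter table, in which 68 members matched. Alternatives covered scaling, count filter, DESeq2 1.42.0, replicate number, sex, single libraries left out, and summed pseudogene rows. Some genes that these rules select are not reported here.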

Additional observations from a re-analysis of the deposited data

How the results depend on the processing

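The count of 0 called members was also 0 with DESeq2-style size factors, library totals alone, TMM without ribosomal protein and mitochondrially encoded genes, no count filter, a looser filter (1 CPM or more in 3 libraries) and DESeq2. It was 2 with the sex covariate and 1 with pseudogene rows added, and it ran from 0 to 3 with single libraries left out. With the replicate number as a block it was 0, and calls over all genes went from 132 to 136; the numbers do not pair the libraries, since deviations of same-numbered libraries correlated at 0.013, 0.020 and 0.009, and not every library correlated best with its own number. The median log2 fold change of tested members lay between 0.078 and 0.18 under every alternative, 0.13 with the block. Assembly genes had 1 call with the looser filter, where 175 of all 13198 tested genes were called. The called gene, named after its value was seen, was Rrp1b. It was at 1.58, 2.39 and 5.41 CPM in WT and 14.2, 12.1 and 18.4 CPM in ΔrsCBE. That filter tested 50 assembly genes instead of 36. Translation partner and mitochondrial ribosomal protein genes had 0 calls under each alternative run, where calls over all tested genes ran from 59 to 187. The share of counts was 0.464% in WT and 0.510% in ΔrsCBE without mitochondrially encoded genes in the total, and 0.598% and 0.669% with -ps rows and 2 further genes added. The subunit ratio without the 5 most abundant members of each subunit was 1.51 and 1.55. With single libraries left out, the difference in the share of Rpl7l1 ran from −2.29 to 3.11 percentage points around −0.42, positive without WT replicate 3 (3.11) or ΔrsCBE replicate 1 (2.44). That of Rpl3l ran from −11.5 to 9.51 around 1.33, negative without WT replicate 2 (−11.5), ΔrsCBE replicate 2 (−3.88) or ΔrsCBE replicate 3 (−0.13). Signs turned with the sex covariate for Rps18 (0.11), Rpl29 (0.13), Rps20 (0.069), Rpl8 (−0.023) and Rpl4 (−0.072), and with single libraries left out for Rps20 (from −0.46 to 0.039, positive without WT replicate 3); the cause was not tested. The estimates of Rpl15 (−0.67 to 0.34), Rpl17 (−0.29 to 0.32), Rpl26 (−0.074 to 0.31), Rplp1 (−0.11 to 0.17), Rps15 (−0.29 to 0.20), Rps15a (−0.22 to 0.055) and Rps3 (−0.066 to 0.28), each smaller than its standard error with all libraries, also crossed 0 with single libraries left out. Of 375 values of 25 named genes under alternatives, 339 kept their direction and side of the threshold without moving by more than the replicate spread. Those that did not were unevenly spread over the alternatives. The sex covariate gave 18 of them, over the 25 genes, and leaving out ΔrsCBE replicate 1 gave 8. At this depth 49 of 94 members were not tested.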
